A study of Mus musculus with 12 samples.

Results

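Translation initiation factors were followed on 12 single-colour Agilent arrays of mouse B cells as the genes whose symbol on the array is Eif and a digit, without the sex-linked Eif2s3x and Eif2s3y. The rule uses only the symbols and no measured value. It took 57 symbols with 112 probes out of 61307 gene probes. Each symbol was followed through its brightest probe by the mean over all arrays, and 54 of the 57 symbols entered the test, among 31599 probes tested. Of these 54, 53 were well above background on all 12 arrays, and Eif2c3 was so on only 4. Not tested were Eif4e1b, which was above background on 0 arrays, Eif5al3, above on 1, and Eif2c4, whose brightest probe lacked a value on some arrays. Some array symbols are old: by accession, RefSeq calls Eif1ay Eif1ax, Eif3j Eif3j1 and Eif2c1 to Eif2c4 Ago1 to Ago4, which are Argonautes and not initiation factors. The tested Argonautes, Eif2c1 to Eif2c3, stay among the 54 symbols that are called factors below. Eif3s8 and Eif3c share an accession, so they are 2 symbols of 1 gene. Eif1 was saturated on all 12 arrays, Eif3g on 10 and Eif3h on 4, so no change can be read from Eif1 and only a compressed one from the other two. Levels, changes and calls below are those of the brightest probe unless another probe is named.

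The cells were resting B cells from the spleen of BALB/c mice, labelled female and 6 weeks old, and cultured for 4 h. There were 6 groups of 2 arrays: unstimulated cells, Pam2CSK4, anti-CD86 antibody, anti-CD86 with Pam2CSK4 (called TLR2.CD86), anti-CD40 antibody, and anti-CD40 with Pam2CSK4. Pam2CSK4 is a synthetic lipopeptide that is recognised through the Toll-like receptor TLR-2, while CD86 and CD40 are costimulatory molecules on the B cell surface. By the study's methods the cells were isolated by removal of CD43 positive cells, and anti-CD86 was a biotinylated antibody cross-linked with streptavidin; arrays of an isotype control antibody were not analysed here. All groups share the strain, the culture and the time. The labels do not say which arrays came from separate animals or cultures, so p-values measure only the spread between these arrays.

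In eukaryotes the small ribosomal subunit carries the initiator tRNA, brought by eIF2 bound to GTP, and is recruited to the cap of the mRNA by eIF4F, a complex of the cap-binding protein eIF4E, the scaffold eIF4G and the helicase eIF4A. The 4E-binding proteins hold eIF4E away from eIF4G until they are phosphorylated downstream of mTOR. The kinases of eIF2 phosphorylate its alpha subunit, which blocks the exchange factor eIF2B and lowers general initiation. A resting lymphocyte translates little and enlarges its translation machinery when it is activated.

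The arrays lay on 2 slides, each scanned in a run of its own. Of the 8 arrays on slide 1, 4 were the pairs of the unstimulated and the anti-CD40+Pam2CSK4 groups, and replicate 2 of each of the other 4 groups was on slide 2. Between 46.6% and 60.6% of the spots were well above background. With slide as a term in the model, 48 of the 54 factors differed between slides, 47 of them lower on slide 2, with a median difference of -0.28 in log2 signal against -0.13 over all probes. A mean of Pam2CSK4, anti-CD86, TLR2.CD86 or anti-CD40 arrays therefore mixes both slides and is set against slide 1 alone, whereas anti-CD40+Pam2CSK4 is compared with unstimulated cells within slide 1. Values from the fit with the slide as a block are given beside those without it. All 9 B cell markers were well above background on every array. So were 8 of 8 myeloid, 7 of 8 T cell and 4 of 5 natural killer cell markers. The log2 of the summed myeloid signal was 8.87 to 8.96 in unstimulated cells, 8.54 to 8.72 with Pam2CSK4 and 8.43 to 8.56 with anti-CD86. It was 8.34 to 8.53 with TLR2.CD86, 8.40 to 8.62 with anti-CD40 and 8.69 to 8.86 with anti-CD40+Pam2CSK4. The brightest myeloid marker, S100a9, read 7.57 in unstimulated cells and 7.95 with anti-CD40+Pam2CSK4, within the range of the saturated Eif1. The sum may therefore hide part of a fall in other markers. Between these groups S100a8 went from 6.99 to 6.53 and Mpo from 7.26 to 6.43. Of the 8 myeloid markers, 5 fell with TLR2.CD86, 5 with anti-CD40+Pam2CSK4, 3 with anti-CD40, 1 with anti-CD86 and 0 with Pam2CSK4. The summed natural killer cell signal was 2.76 to 2.80 in unstimulated cells, 2.25 to 2.33 with TLR2.CD86, 2.18 to 2.30 with anti-CD40 and 2.51 to 2.57 with anti-CD40+Pam2CSK4, where 2, 2 and 1 of its 5 markers fell. It was 2.56 to 2.57 with Pam2CSK4 and 2.37 to 2.43 with anti-CD86, where 0 of its markers fell. A marker is counted as fallen if it was lower at an adjusted p under 0.05 in limma without the block. By that measure 7.38% of all probes fell with TLR2.CD86, 10.7% with anti-CD40, 9.7% with anti-CD40+Pam2CSK4 and 1.19% with anti-CD86. With Pam2CSK4, 0.146% were called in either direction. The part of these cells in the changes below was not tested, and fewer cells of a type and less RNA per cell cannot be told apart.

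Called genes are those with an adjusted p under 0.05 in limma's moderated test, adjusted by Benjamini-Hochberg over all 31599 probes. Pam2CSK4 alone gave 0 calls among the 54 factors (0.146% of all probes were called; 5 factors had an unadjusted p under 0.05). Anti-CD86 gave 2, Eif2c1 higher and Eif3e lower, against 2.17% of all probes (0.978% higher and 1.19% lower). TLR2.CD86 gave 4, all lower, namely Eif1ay, Eif3m, Eif4a2 and Eif4ebp1, which is 7.41% of the factors against 10.8% of all probes (3.41% higher and 7.38% lower). Anti-CD40 gave 4 as well, Eif1a higher and Eif2ak2, Eif2ak3 and Eif4ebp1 lower, or 7.41% against 16.8% (6.16% and 10.7%). Anti-CD40+Pam2CSK4 gave 8, with Eif1a, Eif2c1, Eif2s1, Eif3s8, Eif4a1 and Eif6 higher and Eif2ak3 and Eif4ebp2 lower, or 14.81% against 18.2% (8.54% and 9.7%). The Argonaute Eif2c1 is counted among the calls for anti-CD86 and for anti-CD40+Pam2CSK4. For the last 3 stimulations the share of factors called was below that of all probes. The counts rest on few arrays. The 4 calls for TLR2.CD86 came to 0 without either unstimulated array or TLR2.CD86 replicate 2, to 1 without TLR2.CD86 replicate 1 or any 1 array of anti-CD86 or anti-CD40+Pam2CSK4, to 2 without either Pam2CSK4 array and to 7 without either anti-CD40 array. The 4 for anti-CD40 came to 0 without either unstimulated array, 1 without anti-CD40 replicate 2 and 8 without its replicate 1. The 8 for anti-CD40+Pam2CSK4 came to 4 and 2 without unstimulated replicate 1 and 2 and to 4 without either of its own arrays. The 2 for anti-CD86 came to 4 without either anti-CD40 array and to 0 without any other single array.

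With the slide as a block, the calls came to 3 for Pam2CSK4, 19 for anti-CD86, 23 for TLR2.CD86, 26 for anti-CD40 and 34 for anti-CD40+Pam2CSK4, where 11.1%, 28.5%, 35.1%, 37.3% and 47.5% of all probes were called. Of these calls 2, 7, 9, 17 and 24 were higher than in unstimulated cells, where 4.71%, 13%, 14.5%, 15.7% and 23.8% of all probes were. The calls in either direction were 5.56%, 35.19%, 42.59%, 48.15% and 62.96% of the 54 factors. The 34 include Eif1, from which no change can be read, and the largely saturated Eif3g. All 52 calls made without the block, over 13 comparisons, were made with it in the same direction.

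**Figure D1:**
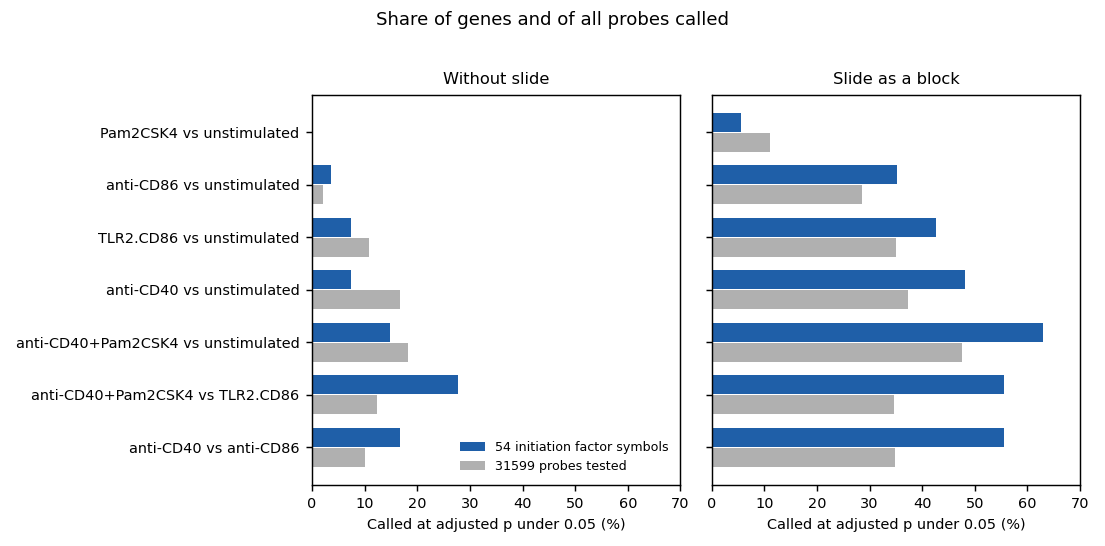
Bars give the share called at an adjusted p under 0.05 in 7 comparisons, among the 54 initiation factor symbols and among all 31599 probes, without slide in the model (left) and with slide as a block (right). Against unstimulated cells, the share of factors lay below or near that of all probes without the block and above it, except for Pam2CSK4, with the block.

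Taken over the 54 factors, the median log2 fold change against unstimulated cells was 0.20 with anti-CD40+Pam2CSK4, with 40 of 54 above 0, while the median of all probes was 0.01. The 40 include Eif1, Eif3g and Eif3h, which were saturated on some or all arrays, and the 3 tested Argonautes. They also include both Eif3c and Eif3s8, which are the same gene. Under the scalings tried the median of the factors stayed above 0, at 0.09 with median normalization, 0.16 with normexp background correction and 0.19 with quantile normalization. The medians of all probes there were -0.10, 0.07 and -0.02. For TLR2.CD86 the median of the factors was -0.21 with 19 above 0, against -0.03 for all probes. It was below 0 under each scaling tried, but with quantile normalization it was -0.05 with 24 above 0, against -0.03 for all probes. With the slide block it came to -0.04, against -0.01 for all probes. The anti-CD40 median, -0.03, changed sign with the scaling, since it was 0.03 with centring on bright probes and 0.08 with the slide block. Median normalization moved the median of all probes itself to -0.26, -0.19, -0.32, -0.58 and -0.10 in the comparisons of Pam2CSK4, anti-CD86, TLR2.CD86, anti-CD40 and anti-CD40+Pam2CSK4 with unstimulated cells, and left 0 factors called in any comparison. Under it the factors above 0 went from 23 to 2 with anti-CD40 and from 19 to 3 with TLR2.CD86, against 40 to 36 with anti-CD40+Pam2CSK4.

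**Figure D2:**
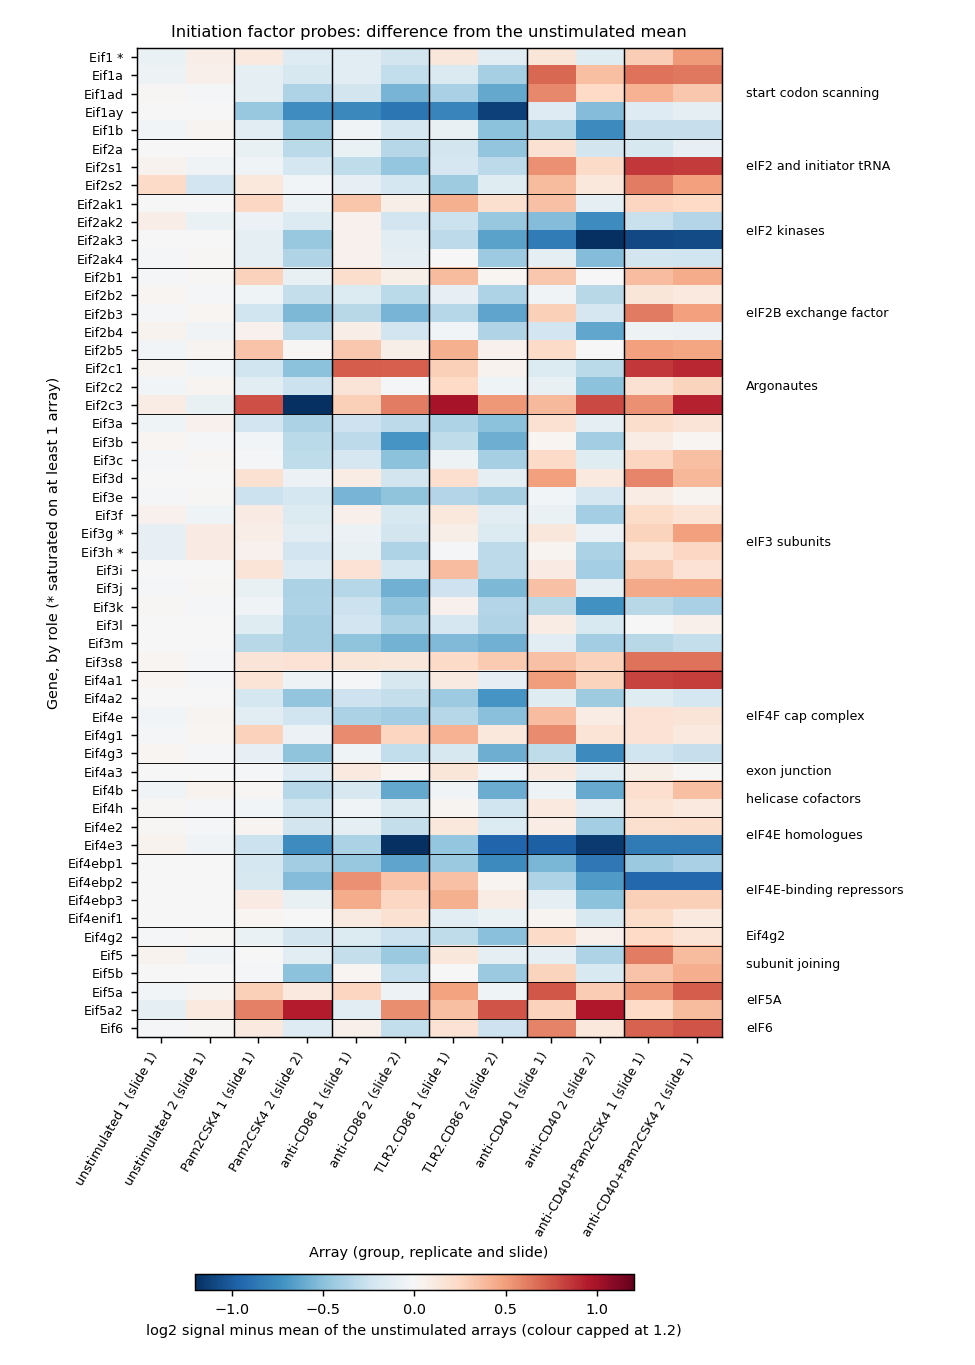
Each row is 1 of the 54 tested factors, grouped by role, and each column 1 of the 12 arrays; colour gives the log2 signal minus the mean of the 2 unstimulated arrays, capped at 1.2, and an asterisk marks saturation on at least 1 array. The Eif2ak3 row turns blue and the Eif4a1 row red toward the anti-CD40+Pam2CSK4 columns, and most slide 2 columns are bluer than the slide 1 column of the same group.

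The cap-binding complex was represented by 5 genes, and 1 of them, the helicase Eif4a1, rose with anti-CD40+Pam2CSK4. On the log2 scale relative to each array's 75th percentile, which is used for all levels here, Eif4a1 read 5.18 and 5.14 in unstimulated cells, 5.32 and 5.10 with Pam2CSK4, 5.14 and 4.97 with anti-CD86, 5.27 and 5.06 with TLR2.CD86, 5.66 and 5.43 with anti-CD40, and 5.97 and 5.98 with anti-CD40+Pam2CSK4. Both arrays of anti-CD40+Pam2CSK4 lay above the other 10 arrays. On the log2 scale it rose by 0.82 (SE 0.14, adjusted p = 0.00598), which is 1.77-fold. Anti-CD40 alone gave 0.39 (SE 0.14, adjusted p = 0.0895) and, once slide was blocked, 0.49 (adjusted p = 0.000803). The probes of Eif4a1 disagreed: a dimmer one fell by 0.45 on the log2 scale with anti-CD40+Pam2CSK4 in the slide block fit (adjusted p = 0.000925, and 0.0923 without the block), and another was between 2.31 and 2.53 on slide 2 but between 0.32 and 1.29 on slide 1.

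Eif4e, which binds the cap, went apart between the CD86 and the CD40 stimulations. Its level was 3.94 and 4.00 in unstimulated cells, 3.83 and 3.73 with Pam2CSK4, 3.59 and 3.55 with anti-CD86, 3.62 and 3.47 with TLR2.CD86, 4.34 and 4.06 with anti-CD40, and 4.14 and 4.12 with anti-CD40+Pam2CSK4. The 4 arrays with anti-CD86 or TLR2.CD86 were the lowest and the 4 with anti-CD40 the highest of the 12. Against unstimulated cells no change passed without the block, at -0.42 (SE 0.12, adjusted p = 0.0658) under TLR2.CD86 and 0.23 (SE 0.12, adjusted p = 0.235) under anti-CD40, while with the block TLR2.CD86 gave -0.35 (adjusted p = 0.0112) and anti-CD40 0.30 (adjusted p = 0.0172); the anti-CD40 value turned to -0.34 with median normalization and to -0.0005 with both that and the block. A second Eif4e probe rose with anti-CD40 by 0.78 (adjusted p = 0.0172). Another dim probe, above background on 5 arrays, entered the test only through the unstimulated group, where it was highest, and its level there was at least 1.68-fold that with anti-CD40+Pam2CSK4.

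The scaffold Eif4g1 read 1.92 and 1.96 in unstimulated cells, 2.22 and 1.86 with Pam2CSK4, 2.50 and 2.20 with anti-CD86, 2.35 and 2.06 with TLR2.CD86, 2.51 and 2.10 with anti-CD40, and 2.11 and 2.06 with anti-CD40+Pam2CSK4. No change of it passed without the block, the greatest being 0.41 (SE 0.19, adjusted p = 0.247) with anti-CD86. Blocking on slide, anti-CD86 gave 0.58 (adjusted p = 0.0021), TLR2.CD86 0.44 (adjusted p = 0.00239), anti-CD40 0.54 (adjusted p = 0.000886) and anti-CD40+Pam2CSK4 0.15 (adjusted p = 0.0617). A much dimmer Eif4g1 probe had another order, for it rose with anti-CD40+Pam2CSK4 by 0.97 (adjusted p = 0.00371) and with TLR2.CD86 by 0.59 (adjusted p = 0.0416) and gave 0.07 with anti-CD86 (adjusted p = 0.788). The second helicase gene, Eif4a2, read 6.24 and 6.23 in unstimulated cells, 6.02 and 5.76 with Pam2CSK4, 5.99 and 5.94 with anti-CD86, 5.80 and 5.52 with TLR2.CD86, 6.09 and 5.81 with anti-CD40, and 6.09 and 6.02 with anti-CD40+Pam2CSK4. It fell with TLR2.CD86, by 0.57 (SE 0.15, adjusted p = 0.0483), a call kept in 11 of the 25 alternative settings, and both TLR2.CD86 arrays were below both unstimulated arrays. Its second probe had a log2 fold change of -0.59 there (adjusted p = 0.0707). The scaffold Eif4g3 was called in no comparison without the block and, with it, was lower for anti-CD40 and for anti-CD40+Pam2CSK4.

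An upstream sequence of 4 of these factors is shown because it holds the letters CACGTG, the canonical E-box bound by Myc and related factors, which is its own reverse complement and so was found on both strands at once. The sequences are RefSeq's for the GRCm38.p6 build, 250 bases before the annotated start, 5′ to 3′ on the strand of the gene, with the motif in capitals, placed by the motif's first base. RefSeq gave Eif4e 2 windows, of which 1 holds the motif, and Eif5a 6, of which 3 do, while Eif4a1 and Eif4g1 have 1 window each.
Eif4a1, chr11:69672424-69672673, minus strand, motif 189 bases before the start: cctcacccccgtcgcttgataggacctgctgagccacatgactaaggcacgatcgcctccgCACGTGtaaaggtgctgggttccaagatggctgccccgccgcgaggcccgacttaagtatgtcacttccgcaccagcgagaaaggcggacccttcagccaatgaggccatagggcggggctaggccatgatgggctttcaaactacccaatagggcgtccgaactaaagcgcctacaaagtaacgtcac
Eif4e, chr3:138527018-138527267, plus strand, motifs 228 and 64 bases before the start: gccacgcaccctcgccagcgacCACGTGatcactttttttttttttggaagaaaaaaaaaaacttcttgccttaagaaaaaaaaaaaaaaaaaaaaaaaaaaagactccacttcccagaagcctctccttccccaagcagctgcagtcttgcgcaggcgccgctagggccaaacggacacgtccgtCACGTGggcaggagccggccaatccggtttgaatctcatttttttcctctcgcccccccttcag
Eif4g1, chr16:20672477-20672726, plus strand, motif 54 bases before the start: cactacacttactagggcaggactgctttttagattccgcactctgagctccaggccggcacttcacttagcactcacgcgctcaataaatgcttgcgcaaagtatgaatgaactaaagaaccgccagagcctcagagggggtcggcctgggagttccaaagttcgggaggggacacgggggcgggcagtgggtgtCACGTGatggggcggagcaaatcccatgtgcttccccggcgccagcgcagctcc
Eif5a, chr11:69921387-69921636, minus strand, motif 74 bases before the start: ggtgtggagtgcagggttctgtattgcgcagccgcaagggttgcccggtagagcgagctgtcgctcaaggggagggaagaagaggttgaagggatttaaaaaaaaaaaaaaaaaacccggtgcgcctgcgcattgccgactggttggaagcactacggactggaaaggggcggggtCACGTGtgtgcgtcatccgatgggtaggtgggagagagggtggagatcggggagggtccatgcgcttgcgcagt
A window was given for 43 of the member genes, and 9 of these (20.93%) held the motif, namely Eif1b, Eif3f, Eif3k, Eif4a1, Eif4e, Eif4g1, Eif4h, Eif5a and Eif5a2. Over all genes it was in 1854 of 27025 (6.86%). The 9 did not move as a group: with anti-CD40+Pam2CSK4 in the slide block fit, Eif3f, Eif4a1 and Eif5a were higher and Eif1b and Eif3k lower. A match of letters says nothing of binding in these cells.

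**Figure D3:**
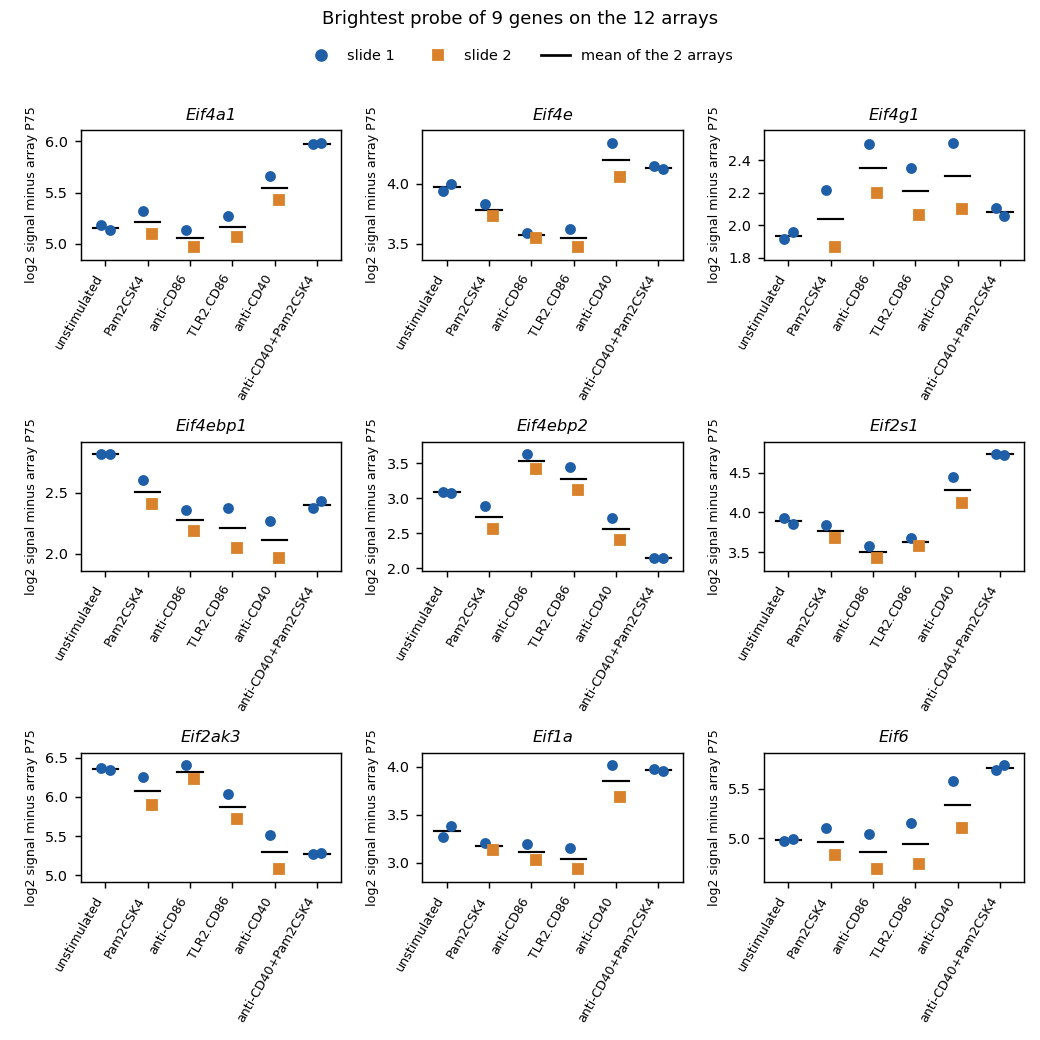
Points give the log2 signal minus the array's 75th percentile (P75) for 9 genes on each of the 12 arrays, with circles for slide 1 and squares for slide 2, and lines give the mean of each group's 2 arrays. Eif4a1 is highest in both anti-CD40+Pam2CSK4 arrays at 5.97 and 5.98, Eif4ebp2 is highest with anti-CD86 and lowest with anti-CD40+Pam2CSK4, and in the 4 groups spread over both slides the slide 2 array is the lower of the pair in each panel.

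Of the eIF4E homologues, Eif4e3 had low levels after every stimulation by its brightest probe. It read 0.32 and 0.24 in unstimulated cells, 0.02 and -0.47 with Pam2CSK4, -0.10 and -1.05 with anti-CD86, -0.18 and -0.67 with TLR2.CD86, -0.70 and -0.87 with anti-CD40, and -0.57 and -0.56 with anti-CD40+Pam2CSK4. All 10 stimulated arrays were below both unstimulated arrays, yet the spread within groups was wide and no change passed without the block: -0.86 (SE 0.31, adjusted p = 0.154) for anti-CD86, -1.07 (SE 0.31, adjusted p = 0.0518) for anti-CD40 and -0.85 (SE 0.31, adjusted p = 0.1) for anti-CD40+Pam2CSK4. With the block it fell with anti-CD86 (-0.59, adjusted p = 0.0444), with anti-CD40 (-0.80, adjusted p = 0.0119) and with anti-CD40+Pam2CSK4 (-0.85, adjusted p = 0.00614). A dimmer Eif4e3 probe followed only in part. It read -2.05 and -2.36 in unstimulated cells and was below both on the anti-CD86, TLR2.CD86 and anti-CD40 arrays. With Pam2CSK4 (-2.21 and -2.64) and with anti-CD40+Pam2CSK4 (-2.21 and -2.35) it overlapped the unstimulated arrays. Eif4e2 and the helicase cofactors Eif4b and Eif4h were called against unstimulated cells in no comparison without the block, and Eif4b was higher for anti-CD40+Pam2CSK4 with it. Other probes of Eif4e2 disagreed, since 1 rose with anti-CD40 by 0.47 (adjusted p = 0.0416) and another fell with anti-CD40+Pam2CSK4 by 0.82 (adjusted p = 0.0113).

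The 4E-binding proteins, which repress eIF4E, did not move together. Eif4ebp1 read 2.82 on both arrays in unstimulated cells, 2.61 and 2.40 with Pam2CSK4, 2.36 and 2.19 with anti-CD86, 2.38 and 2.05 with TLR2.CD86, 2.27 and 1.96 with anti-CD40, and 2.38 and 2.43 with anti-CD40+Pam2CSK4. All 10 stimulated arrays lay below both unstimulated ones. It fell with anti-CD40 by 0.70 (SE 0.16, adjusted p = 0.0243) and with TLR2.CD86 by 0.60 (SE 0.16, adjusted p = 0.0487), and with the slide block also with anti-CD86 (-0.42, adjusted p = 0.00546) and anti-CD40+Pam2CSK4 (-0.41, adjusted p = 0.00171). A dim second probe was above background on 6 arrays and was called in none of these without the block.

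Eif4ebp2 read 3.09 and 3.08 in unstimulated cells, 2.89 and 2.56 with Pam2CSK4, 3.63 and 3.42 with anti-CD86, 3.44 and 3.12 with TLR2.CD86, 2.71 and 2.40 with anti-CD40, and 2.15 and 2.14 with anti-CD40+Pam2CSK4. Both arrays of anti-CD86 and TLR2.CD86 lay above both unstimulated arrays, and both arrays of anti-CD40 and of anti-CD40+Pam2CSK4 below them. It fell with anti-CD40+Pam2CSK4 by 0.94 (SE 0.17, adjusted p = 0.00851), a 1.92-fold change. For anti-CD40 the value was -0.53 (SE 0.17, adjusted p = 0.0727), which passed with the slide block at -0.38 (adjusted p = 0.00263). For anti-CD86 it was 0.44 (SE 0.17, adjusted p = 0.178), which the block made 0.59 (adjusted p = 0.00203). Eif4ebp3 read 2.22 and 2.23 in unstimulated cells, 2.32 and 2.14 with Pam2CSK4, 2.67 and 2.47 with anti-CD86, 2.65 and 2.32 with TLR2.CD86, 2.11 and 1.73 with anti-CD40, and 2.51 on both arrays with anti-CD40+Pam2CSK4. None of its changes against unstimulated cells passed without the block, while with it anti-CD86 gave 0.48 (adjusted p = 0.00461), TLR2.CD86 0.39 (adjusted p = 0.00626) and anti-CD40+Pam2CSK4 0.29 (adjusted p = 0.0112). Eif4enif1, which carries eIF4E into the nucleus and to P-bodies, was called in none of the 5, with or without the block.

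eIF2 brings the initiator tRNA, and its alpha subunit Eif2s1 rose with anti-CD40+Pam2CSK4. Eif2s1 read 3.92 and 3.85 in unstimulated cells, 3.84 and 3.68 with Pam2CSK4, 3.58 and 3.42 with anti-CD86, 3.68 and 3.57 with TLR2.CD86, 4.44 and 4.11 with anti-CD40, and 4.73 and 4.72 with anti-CD40+Pam2CSK4. Both arrays of anti-CD40+Pam2CSK4 were the highest and both of anti-CD40 came next, while the anti-CD86 and TLR2.CD86 arrays lay below the unstimulated ones. The rise in log2 signal was 0.84 (SE 0.14, adjusted p = 0.00531), or 1.79-fold, and a second probe rose by 0.53 (adjusted p = 0.0247). Anti-CD40 gave 0.39 (SE 0.14, adjusted p = 0.0866), which passed under the slide block at 0.49 (adjusted p = 0.00273). Anti-CD86 gave -0.38 (SE 0.14, adjusted p = 0.151), and under the block -0.29 (adjusted p = 0.0251). The beta subunit Eif2s2 gave 0.55 (SE 0.18, adjusted p = 0.0736) with anti-CD40+Pam2CSK4, which the block called, and Eif2a was called in none of the 5.

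The exchange factor eIF2B has 5 subunits, and none was called against unstimulated cells without the block. Eif2b3 read 0.20 and 0.25 in unstimulated cells, -0.01 and -0.31 with Pam2CSK4, -0.11 and -0.33 with anti-CD86, -0.12 and -0.40 with TLR2.CD86, 0.51 and 0.03 with anti-CD40, and 0.85 and 0.72 with anti-CD40+Pam2CSK4. It was below the unstimulated arrays with Pam2CSK4, anti-CD86 and TLR2.CD86 and above them on both anti-CD40+Pam2CSK4 arrays, where the value was 0.56 (SE 0.19, adjusted p = 0.0851). It passed under the block at 0.56 (adjusted p = 0.00171). A much dimmer Eif2b3 probe entered the test only through the anti-CD40 and anti-CD40+Pam2CSK4 groups, where it was highest, so it is described without a test: its level was at least 2.11-fold and 3.02-fold that in unstimulated cells, where it was not well above background. The catalytic subunit Eif2b5 read 1.15 and 1.21 in unstimulated cells, 1.53 and 1.2 with Pam2CSK4, 1.5 and 1.26 with anti-CD86, 1.61 and 1.23 with TLR2.CD86, 1.42 and 1.18 with anti-CD40, and 1.68 and 1.66 with anti-CD40+Pam2CSK4. It was 0.48 (SE 0.18, adjusted p = 0.0985) with anti-CD40+Pam2CSK4, and with the slide block it was called higher with all 5 stimulations, from 0.26 (adjusted p = 0.0157) with anti-CD40, which median normalization in that fit turned to -0.04, to 0.48 (adjusted p = 0.000846) with anti-CD40+Pam2CSK4.

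Among the 4 eIF2 kinases the clearest change was in Eif2ak3, which encodes PERK, the kinase that responds to unfolded protein in the endoplasmic reticulum. Eif2ak3 read 6.36 and 6.35 in unstimulated cells, 6.25 and 5.90 with Pam2CSK4, 6.41 and 6.22 with anti-CD86, 6.04 and 5.71 with TLR2.CD86, 5.52 and 5.07 with anti-CD40, and 5.27 and 5.28 with anti-CD40+Pam2CSK4. The 4 arrays with anti-CD40 were the lowest of the 12, and anti-CD86 alone overlapped unstimulated cells. It fell with anti-CD40 by 1.06 (SE 0.19, adjusted p = 0.0121) and with anti-CD40+Pam2CSK4 by 1.08 (SE 0.19, adjusted p = 0.00721), which is 2.09-fold and 2.11-fold. With TLR2.CD86 the value was -0.48 (SE 0.19, adjusted p = 0.137), and blocking on slide made it -0.32 (adjusted p = 0.0163).

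Eif2ak2, which encodes the kinase PKR that senses double-stranded RNA, read -1.78 and -1.93 in unstimulated cells, -1.93 and -2.02 with Pam2CSK4, -1.80 and -2.08 with anti-CD86, -2.11 and -2.31 with TLR2.CD86, -2.37 and -2.61 with anti-CD40, and -2.12 and -2.20 with anti-CD40+Pam2CSK4. It fell with anti-CD40 by 0.64 (SE 0.15, adjusted p = 0.0256), a call kept in 18 of 25 alternatives, and its value with anti-CD40+Pam2CSK4 was -0.31 (SE 0.15, adjusted p = 0.182). Eif2ak1, the haem-regulated kinase, read 0.90 and 0.91 in unstimulated cells, 1.15 and 0.84 with Pam2CSK4, 1.23 and 0.97 with anti-CD86, 1.33 and 1.09 with TLR2.CD86, 1.25 and 0.79 with anti-CD40, and 1.16 and 1.14 with anti-CD40+Pam2CSK4. It passed only with the slide block, where it was higher with 4 of the 5 stimulations, all but Pam2CSK4. The values ran from 0.25 (adjusted p = 0.0204) with anti-CD40+Pam2CSK4 to 0.46 (adjusted p = 0.00378) with TLR2.CD86. The anti-CD40 value of 0.28 (adjusted p = 0.0202) turned to -0.03 with median normalization in that fit. A dimmer Eif2ak1 probe, above background on all 12 arrays, was called with none of these 4 under the slide block. It gave 0.03 with anti-CD86 (adjusted p = 0.928) and 0.17 with TLR2.CD86 (adjusted p = 0.611). With anti-CD40 it gave -0.004 (adjusted p = 0.992) and with anti-CD40+Pam2CSK4 0.32 (adjusted p = 0.277). Eif2ak4, which encodes GCN2, the sensor of amino acid shortage, was lower with anti-CD40+Pam2CSK4 in the slide block fit and called in no other of the 5.

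Factors of start codon selection and scanning differed in direction. Eif1a read 3.26 and 3.39 in unstimulated cells, 3.21 and 3.14 with Pam2CSK4, 3.19 and 3.03 with anti-CD86, 3.15 and 2.93 with TLR2.CD86, 4.02 and 3.68 with anti-CD40, and 3.97 and 3.95 with anti-CD40+Pam2CSK4. All 4 arrays with anti-CD40 lay above the other 8. It rose with anti-CD40+Pam2CSK4 by 0.64 (SE 0.14, adjusted p = 0.0194), and with anti-CD40 by 0.52 (SE 0.14, adjusted p = 0.0436), where median normalization turned the value to -0.04. Both other probes of Eif1a rose as well, by 0.99 (adjusted p = 0.00168) and 0.72 (adjusted p = 0.0436) with anti-CD40+Pam2CSK4. Eif1ad read 3.25 and 3.22 in unstimulated cells, 3.13 and 2.87 with Pam2CSK4, 3.02 and 2.68 with anti-CD86, 2.85 and 2.62 with TLR2.CD86, 3.81 and 3.47 with anti-CD40, and 3.65 and 3.56 with anti-CD40+Pam2CSK4. It passed against unstimulated cells only with the block, higher with anti-CD40 (0.55, adjusted p = 0.00108) and with anti-CD40+Pam2CSK4 (0.37, adjusted p = 0.00265) and lower with anti-CD86 (-0.24, adjusted p = 0.0287) and TLR2.CD86 (-0.35, adjusted p = 0.00645). Its second probe rose with anti-CD40+Pam2CSK4 without the block, by 0.50 (adjusted p = 0.0199), and was not lower with anti-CD86 or TLR2.CD86, at 0.05 and 0.04 (adjusted p = 0.81 and 0.838).

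Eif1ay, the X-linked Eif1ax by RefSeq, read 4.58 on both arrays in unstimulated cells, 4.13 and 3.84 with Pam2CSK4, 3.80 and 3.72 with anti-CD86, 3.79 and 3.46 with TLR2.CD86, 4.42 and 4.06 with anti-CD40, and 4.42 and 4.47 with anti-CD40+Pam2CSK4. All 10 stimulated arrays were below both unstimulated ones, and the 4 with anti-CD86 or TLR2.CD86 were the lowest. It fell with TLR2.CD86 by 0.96 (SE 0.17, adjusted p = 0.0189), a 1.94-fold change, and its value with anti-CD86 was -0.82 (SE 0.17, adjusted p = 0.0543). The dimmer Eif1ay probe agreed in sign for TLR2.CD86 (-0.33, adjusted p = 0.122) but rose with anti-CD40 (0.49, adjusted p = 0.0367) and with anti-CD40+Pam2CSK4 (0.69, adjusted p = 0.0087), where the brighter probe was -0.13 (SE 0.17, adjusted p = 0.662). Eif1b was lower with anti-CD40 and with anti-CD40+Pam2CSK4 in the slide block fit only.

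eIF3 is the scaffold on the small subunit and the array gave 14 symbols for it. The median of the 14 log2 fold changes was -0.17 with Pam2CSK4, -0.29 with anti-CD86, -0.20 with TLR2.CD86, -0.08 with anti-CD40 and 0.20 with anti-CD40+Pam2CSK4. With the slide block the medians were 0.00, -0.19, -0.04, 0.07 and 0.20, and the block called 0, 5, 6, 5 and 8 of the 14, where 11.1%, 28.5%, 35.1%, 37.3% and 47.5% of all probes were called. The calls with anti-CD86 were 0 higher and 5 lower, those with TLR2.CD86 1 and 5, those with anti-CD40 4 and 1, and those with anti-CD40+Pam2CSK4 6 and 2. Eif3b, Eif3e and Eif3j were among the lower calls with anti-CD86 and TLR2.CD86. A dimmer Eif3b probe went the other way, from 0.37 and 0.51 in unstimulated cells to 1.08 and 0.88 with anti-CD86 and 1.01 and 0.71 with TLR2.CD86. A dimmer Eif3e probe and a dimmer Eif3j probe were lower too, but another Eif3j probe went from 2.58 and 2.54 to 2.69 and 3.20 with anti-CD86. Eif3c and Eif3s8, symbols of the same gene, both count among the higher calls with anti-CD40 and with anti-CD40+Pam2CSK4. The latter also include the largely saturated Eif3g. Eif3e read 5.72 and 5.75 in unstimulated cells, 5.48 and 5.52 with Pam2CSK4, 5.18 and 5.25 with anti-CD86, 5.38 and 5.34 with TLR2.CD86, 5.70 and 5.54 with anti-CD40, and 5.83 and 5.77 with anti-CD40+Pam2CSK4. It fell with anti-CD86 by 0.52 (SE 0.10, adjusted p = 0.0486), a call kept in 9 of 25 alternatives, and TLR2.CD86 gave -0.38 (SE 0.10, adjusted p = 0.0551). Eif3m read 6.02 and 6.01 in unstimulated cells, 5.68 and 5.62 with Pam2CSK4, 5.54 and 5.45 with anti-CD86, 5.49 and 5.45 with TLR2.CD86, 5.89 and 5.60 with anti-CD40, and 5.68 and 5.74 with anti-CD40+Pam2CSK4. All 10 stimulated arrays were below both unstimulated arrays, and it fell with TLR2.CD86 by 0.55 (SE 0.12, adjusted p = 0.0299).

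Eif3s8, the older symbol of Eif3c, read 4.67 and 4.62 in unstimulated cells, 4.80 and 4.82 with Pam2CSK4, 4.79 and 4.78 with anti-CD86, 4.88 and 4.96 with TLR2.CD86, 4.99 and 4.92 with anti-CD40, and 5.29 and 5.30 with anti-CD40+Pam2CSK4. It rose with anti-CD40+Pam2CSK4 by 0.65 (SE 0.10, adjusted p = 0.00341). The brightest probe named Eif3c, on the same gene, gave 0.31 (SE 0.19, adjusted p = 0.295) there, and 1 of its 2 other probes rose by 0.78 (adjusted p = 0.0123). By their brightest probes Eif3j, Eif3d, Eif3f and Eif3c were called higher and Eif3k and Eif3m lower with anti-CD40+Pam2CSK4 in the fit with the block and not without it, and the largely saturated Eif3g was called there too. A dimmer Eif3j probe rose without the block, by 0.48 (adjusted p = 0.0329).

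The subunit joining factors Eif5 and Eif5b were called higher with anti-CD40+Pam2CSK4 in the fit with the block, at 0.49 (adjusted p = 0.004) and 0.39 (adjusted p = 0.00248), and not without it. A pair of other Eif5b probes rose there without the block, by 0.79 (adjusted p = 0.00739) and 0.47 (adjusted p = 0.0168). Eif5a, which helps the ribosome through difficult peptide bonds, read 5.45 and 5.51 in unstimulated cells, 5.76 and 5.59 with Pam2CSK4, 5.73 and 5.41 with anti-CD86, 5.96 and 5.42 with TLR2.CD86, 6.22 and 5.78 with anti-CD40, and 6.02 and 6.20 with anti-CD40+Pam2CSK4. No change passed without the block, at 0.63 (SE 0.22, adjusted p = 0.0874) for anti-CD40+Pam2CSK4 and 0.52 (SE 0.22, adjusted p = 0.139) for anti-CD40, and with it these 2 gave 0.63 (adjusted p = 0.00303) and 0.71 (adjusted p = 0.00339). Its paralogue Eif5a2 read -1.39 and -1.15 in unstimulated cells, -0.67 and -0.33 with Pam2CSK4, -1.40 and -0.71 with anti-CD86, -0.91 and -0.52 with TLR2.CD86, -1.0 and -0.31 with anti-CD40, and -1.03 and -0.89 with anti-CD40+Pam2CSK4. It was the 1 member higher on slide 2, and its Pam2CSK4 value of 0.77 (SE 0.30, adjusted p = 0.278) became 0.51 (adjusted p = 0.0582) with the slide block. The median over its probes turned the values with anti-CD86, TLR2.CD86 and anti-CD40+Pam2CSK4 from 0.21, 0.56 and 0.31 to -0.20, -0.01 and -0.31. A dimmer Eif5a2 probe was in unstimulated cells at least 1.67-fold its level with anti-CD40+Pam2CSK4, where it was not well above background. Eif6, which keeps the large subunit from joining too early, read 4.97 and 5.0 in unstimulated cells, 5.10 and 4.83 with Pam2CSK4, 5.04 and 4.69 with anti-CD86, 5.16 and 4.74 with TLR2.CD86, 5.57 and 5.11 with anti-CD40, and 5.69 and 5.74 with anti-CD40+Pam2CSK4. Both anti-CD40+Pam2CSK4 arrays were the highest of the 12, and it rose by 0.73 (SE 0.21, adjusted p = 0.0479), a call kept in 12 of 25 alternatives, while its second probe gave 0.36 (adjusted p = 0.344). Eif4a3 of the exon junction complex was called in none of the 5 comparisons, and Eif4g2, which drives initiation without eIF4E, was called higher with anti-CD40 and anti-CD40+Pam2CSK4 and lower with TLR2.CD86 with the block and not without it. Without the block, 1 other Eif4g2 probe rose with anti-CD40+Pam2CSK4 by 0.90 (adjusted p = 0.00203) and another fell with TLR2.CD86 by 0.72 (adjusted p = 0.0464).

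**Figure D4:**
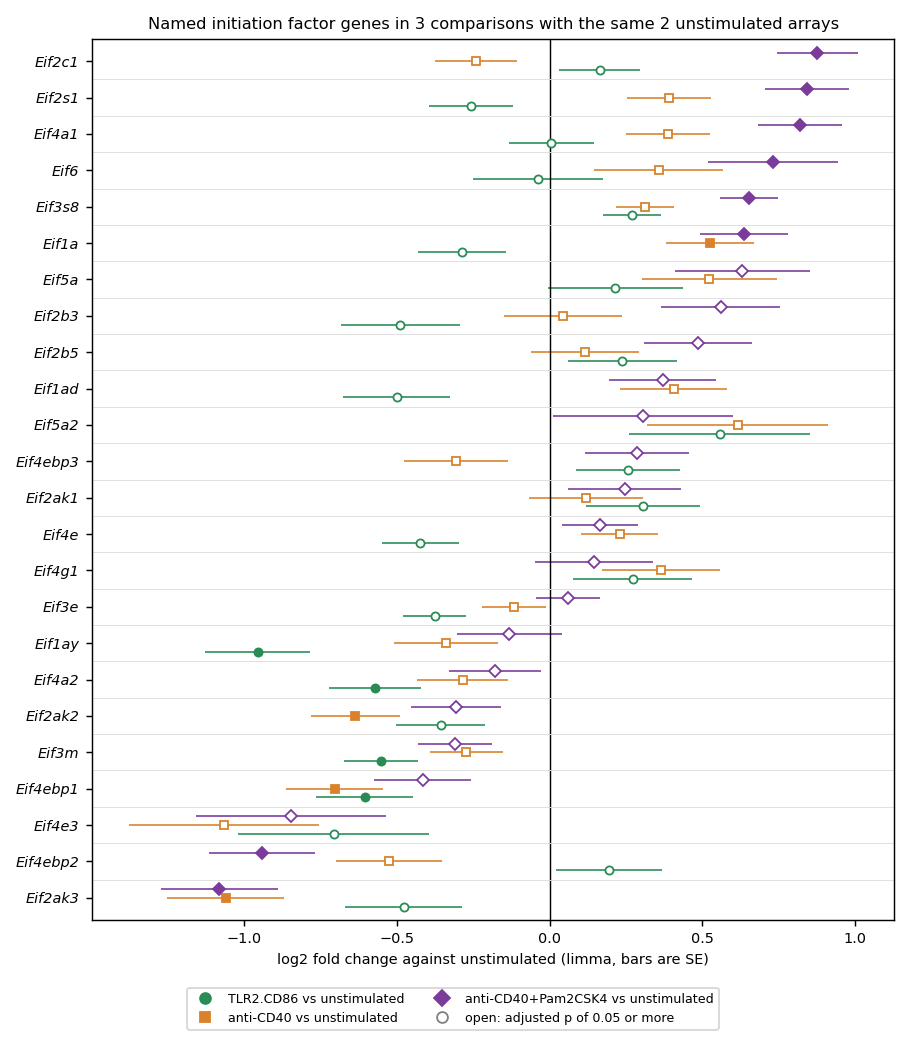
Points give the log2 fold change against unstimulated cells, with its SE from limma, for the 24 named symbols under TLR2.CD86, anti-CD40 and anti-CD40+Pam2CSK4, sorted by the last; filled points passed an adjusted p of 0.05 without the slide block. The 3 comparisons share the same 2 unstimulated arrays. Eif2ak3 lies near -1 under both anti-CD40 stimulations, while Eif2s1, Eif1a and Eif4e lie below 0 under TLR2.CD86 and above 0 under the other two, although with median normalization their anti-CD40 values were -0.18, -0.04 and -0.34.

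The Argonaute probe Eif2c1 (Ago1 by RefSeq) read 0.39 and 0.33 in unstimulated cells, 0.12 and -0.13 with Pam2CSK4, 1.09 and 1.08 with anti-CD86, 0.65 and 0.40 with TLR2.CD86, 0.20 and 0.04 with anti-CD40, and 1.21 and 1.26 with anti-CD40+Pam2CSK4. It rose with anti-CD86 by 0.72 (SE 0.13, adjusted p = 0.0434) and with anti-CD40+Pam2CSK4 by 0.88 (SE 0.13, adjusted p = 0.00397), where both arrays were the highest of the 12. Its other probes did not follow with anti-CD40+Pam2CSK4. Of these, 1 gave -0.28 (adjusted p = 0.844) and read -2.77 on the first Pam2CSK4 array against -0.27 to 0.66 on the other 11. The other was above background on 6 arrays and on neither anti-CD40+Pam2CSK4 array. It entered the test only through anti-CD86 and TLR2.CD86, so its value of -0.48 is given without a test. The brightest Eif2c2 probe was called in none of the 5, whereas 1 of its 2 other probes rose with TLR2.CD86 by 0.53 (adjusted p = 0.041) and the other one gave 0.79 there (adjusted p = 0.0817), which the slide block made 1.03 (adjusted p = 0.000672). Eif2c3 entered the test only through TLR2.CD86, the group with both arrays above background, where it read -3.49 and -3.96 against -4.39 and -4.57 in unstimulated cells, and it was not called.

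Adding anti-CD40 to Pam2CSK4 gave calls in 12.96% of the 54 factors and adding anti-CD86 in 0%, a difference that was not tested itself. TLR2.CD86 gave 0 calls against Pam2CSK4 (0.0633% of all probes; 2 factors at an unadjusted p under 0.05) and 0 against anti-CD86 (0.225%; 2 factors). The slide block gave 7 and 4 calls against 11% and 7.74% of all probes. Among them Eif4ebp2 was higher in TLR2.CD86 than in Pam2CSK4 (0.55, adjusted p = 0.00731) and lower than in anti-CD86 (-0.25, adjusted p = 0.0403), and Eif2c1 did the same (0.53, adjusted p = 0.0136, and -0.56, adjusted p = 0.0138); within slide 2 the Eif4ebp2 differences were 0.56 and -0.30. Anti-CD40+Pam2CSK4 gave 7 calls against Pam2CSK4 (9.97%): Eif1a, Eif2b3, Eif2c1, Eif2s1, Eif3s8 and Eif4a1 higher and Eif2ak3 lower. Against anti-CD40 it gave 2 (2.91%), Eif2c1, whose other probes read -0.28 and -0.08, and Eif5, and 1 without any single array other than anti-CD40 replicate 1. These 2 comparisons are not balanced over slides, since replicate 2 of Pam2CSK4 and of anti-CD40 lay on slide 2. The slide block gave 26 and 13 calls in them, which is 48.15% and 24.07% of the factors against 31.5% and 15.2% of all probes. Without the block, the 7 calls against Pam2CSK4 came to 2 without Pam2CSK4 replicate 2, to 2 and 1 without anti-CD40+Pam2CSK4 replicate 1 and 2, and to 11 without either anti-CD40 array. Eif5 read 7.05 and 6.96 in unstimulated cells, 7.02 and 6.89 with Pam2CSK4, 6.73 and 6.56 with anti-CD86, 7.14 and 6.90 with TLR2.CD86, 6.89 and 6.64 with anti-CD40, and 7.62 and 7.39 with anti-CD40+Pam2CSK4. Both of its anti-CD40+Pam2CSK4 arrays were the highest of the 12, and the difference from anti-CD40 was 0.74 (SE 0.15, adjusted p = 0.0419), although its second probe gave -0.06 there.

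A further pair of comparisons, between the CD40 and the CD86 stimulations, were added after the data were seen. Anti-CD40+Pam2CSK4 differed from TLR2.CD86 in 15 of the 54 factors, 27.78% against 12.3% of all probes, and 14 of these were higher with anti-CD40+Pam2CSK4 (7.48% of all probes), all but Eif4ebp2. They were Eif2s1 (1.1, SE 0.14, adjusted p = 0.00304), Eif2b3 (1.05, SE 0.19, adjusted p = 0.0126), Eif1a, Eif1ad, Eif1ay, Eif2s2, Eif3a, Eif3e, Eif3j, Eif3s8, Eif4a1, Eif4e, Eif4g2 and Eif2c1, with Eif4ebp2 at -1.14 (SE 0.17, adjusted p = 0.00616). The other probes of Eif2c1 went the other way, and the median over probes was -0.62. Of these, 1 gave -0.62 (adjusted p = 0.612). The other, a dim probe, entered the test only through the anti-CD86 and TLR2.CD86 groups, where it was highest, so it is described without a test. It read -3.24 and -3.32 with TLR2.CD86 and was not well above background on either anti-CD40+Pam2CSK4 array. Both anti-CD40+Pam2CSK4 arrays lay on slide 1 and TLR2.CD86 replicate 2 on slide 2, so this comparison is not balanced over slides. The median over the factors was 0.34 without the block and 0.22 with it, against 0.04 for all probes in each fit. Under the slide block 30 factors were called, 25 of them higher, against 34.6% of all probes called and 19.5% higher. The count without the block was 3 without TLR2.CD86 replicate 2, 11 without TLR2.CD86 replicate 1, and 2 and 1 without anti-CD40+Pam2CSK4 replicate 1 and 2.

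Anti-CD40 and anti-CD86 each had 1 array on each slide, so that this comparison is balanced over slides. It gave 9 calls, 16.67% against 10.1% of all probes (4.64% higher). Eif1a, Eif1ad, Eif2s1, Eif3e and Eif4e were higher with anti-CD40, the last by 0.63 (SE 0.12, adjusted p = 0.0191), where median normalization turned Eif3e to -0.02, and Eif2ak3, Eif2c1, Eif4ebp2 and Eif4ebp3 were lower. Eif2ak3 differed by -1.02 (SE 0.19, adjusted p = 0.0152) and Eif4ebp2 by -0.97 (SE 0.17, adjusted p = 0.0127). Within slide 1 the differences of Eif4e, Eif2ak3 and Eif4ebp2 were 0.75, -0.89 and -0.92, and within slide 2 they were 0.51, -1.15 and -1.02. With the slide block 30 factors differed, 20 of them higher with anti-CD40, against 34.8% of all probes called and 16% higher. Leaving out anti-CD86 replicate 1 and 2 left 1 and 2 calls, and leaving out either anti-CD40 array left 5.

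Whether a combination departed from the sum of its parts was tested as an interaction. For CD86 with TLR2 there were 0 calls with or without the slide block (0.019% and 0.234% of all probes; 1 factor at an unadjusted p under 0.05 without the block, 10 with it). For CD40 with TLR2 there was 1, Eif2c1 (1.48, SE 0.19, adjusted p = 0.0112; 1.16% of all probes), which came to 0 without either unstimulated or either anti-CD40+Pam2CSK4 array, and 6 with the block (8.59%), where Eif2b3 (0.58, adjusted p = 0.041), Eif1ay (0.53, adjusted p = 0.0454) and Eif5 (0.60, adjusted p = 0.0458) were above the sum and Eif4g1 (-0.66, adjusted p = 0.00979) and Eif4ebp2 (-0.35, adjusted p = 0.049) below it.

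Other genes of translation were taken from 3 lists, whose calls stand against 0.146% of all probes called with Pam2CSK4, 2.17% with anti-CD86, 10.8% with TLR2.CD86, 16.8% with anti-CD40 and 18.2% with anti-CD40+Pam2CSK4. Of the regulators of initiation, 19 of the 21 listed were on the array and tested, and 1 rose and 2 fell with anti-CD40+Pam2CSK4, a share below that of all probes: Mtor, the kinase that phosphorylates the 4E-binding proteins, rose by 1.03 (adjusted p = 0.00261), and Mknk1 and Mknk2, the kinases of eIF4E, had -0.70 (adjusted p = 0.00974) and -0.81 (adjusted p = 0.0173). Mtor also rose with anti-CD86 by 0.75 (adjusted p = 0.0436), with TLR2.CD86 by 0.72 (adjusted p = 0.0234) and with anti-CD40 by 0.90 (adjusted p = 0.00764). Mknk1 also fell with TLR2.CD86, at -0.52 (adjusted p = 0.0471), and with anti-CD40, at -0.62 (adjusted p = 0.0211). Of 10 tested elongation and termination factors, Abce1, the ribosome recycling factor, rose with anti-CD40 by 0.63 (adjusted p = 0.0209) and with anti-CD40+Pam2CSK4 by 0.77 (adjusted p = 0.00719). Eef1e1, part of the multi-synthetase complex, rose with the same stimulations by 0.75 (adjusted p = 0.0254) and 1.24 (adjusted p = 0.00279). Eef2k, the kinase that inhibits eEF2, fell with anti-CD40+Pam2CSK4, at -0.86 (adjusted p = 0.0116), and the release factor Etf1 fell with TLR2.CD86, at -0.54 (adjusted p = 0.0323). Of 5 genes of poly(A) binding, Paip2 and Paip2b, inhibitors of the poly(A)-binding protein, fell with anti-CD40+Pam2CSK4, at -0.55 (adjusted p = 0.0301) and -0.74 (adjusted p = 0.0137). Paip2b also fell with anti-CD40, at -0.55 (adjusted p = 0.0456), and Pabpc4 fell with TLR2.CD86, at -0.55 (adjusted p = 0.031). Eef1a1, Eef1b2, Eef1g and Pabpc1 stayed between 7.39 and 8.10, within the range of the saturated Eif1. Changes in them may therefore not be readable, though they count among the genes tested. Pam2CSK4 alone gave 0 calls in these 3 lists without the block. With the slide block, 11.1%, 28.5%, 35.1%, 37.3% and 47.5% of all probes were called, in the order of stimulations above. The regulators called higher and lower were then 0 and 0, 2 and 1, 3 and 4, 4 and 5, and 6 and 7. The elongation and termination factors were 0 and 0, 0 and 3, 1 and 2, 4 and 0, and 6 and 2. For poly(A) binding, 0 were higher and 2 lower with each of the first 4, and 1 and 3 with anti-CD40+Pam2CSK4.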

How the data were processed

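Total RNA of the 12 samples was labelled with Cy3 and hybridised to custom mouse Agilent arrays annotated to mm9, 1 array per sample. The authors deposited the scanner intensities of each array, read with Agilent Feature Extraction 10.5.1.1, whose processed signal is background-subtracted and not normalized between arrays. They also deposited a table of log2 values, whose columns were found to be the log2 processed signal minus a constant near each array's 75th percentile; it served as an alternative. Here control spots and outlier flags were left out, spots of a probe were averaged, and the 75th percentile of each array was subtracted from log2 processed signal. Testing required a value on each array and a signal well above background on both arrays of some group, and 68 probes with an outlier value were left out. Groups came from the labels. limma 3.58.1 in R 4.3.3 fitted 1 coefficient per group over all 12 arrays without slide, with Benjamini-Hochberg adjustment over 31599 probes, and fits with slide as a block were made beside it. The method was tested on simulated data. Precision is limited by the 2 arrays per group.

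Values in every array were printed for factors called against unstimulated cells, for the 4 highest and 4 lowest unsaturated factors of each such comparison, and for Eif4e, Eif4g1, Eif4a1, Eif4ebp1, Eif4ebp2, Eif2s1, Eif2ak3, Eif5a and Eif6. Eif5 was added after its values were seen. The factors, lists and rules were chosen with earlier results of these data known. Folds against a group not well above background are lower bounds, computed against the lowest signal well above background on each array. Gene names come from the arrays and, by accession, from RefSeq. Promoters were searched for CACGTG in the 250 bases before each RefSeq start. Alternatives were other scalings, background correction, filters, the authors' values, blocks, left-out arrays and the median over the probes of a gene. The list of red cell markers is not reported here.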

Additional observations from a re-analysis of the deposited data

Results flagged for a closer look

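The Eif2c1 probe departed from the sum of the single effects of anti-CD40 and Pam2CSK4 by 1.48 on the log2 scale in the interaction test (adjusted p = 0.0112), so that the effect of Pam2CSK4 on it differed between cells with and without anti-CD40. The symbol stands for the Argonaute Ago1, and its other probes did not rise with anti-CD40+Pam2CSK4.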

How the results depend on the processing

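Counts below are factors called of the tested ones, against 0 for Pam2CSK4, 2 for anti-CD86, 4 for TLR2.CD86, 4 for anti-CD40 and 8 for anti-CD40+Pam2CSK4 over unstimulated cells, 7, 2 and 15 for anti-CD40+Pam2CSK4 over Pam2CSK4, anti-CD40 and TLR2.CD86, 9 for anti-CD40 over anti-CD86, and 1 for the CD40 by TLR2 interaction. The number of arrays limits all of them, and the causes of the changes were not tested. With the slide block the counts that moved were 3 for Pam2CSK4, 19 for anti-CD86, 23 for TLR2.CD86, 26 for anti-CD40, 34 for anti-CD40+Pam2CSK4, 7 for TLR2.CD86 over Pam2CSK4, 4 for TLR2.CD86 over anti-CD86, 26 for anti-CD40+Pam2CSK4 over Pam2CSK4, 13 for anti-CD40+Pam2CSK4 over anti-CD40, 30 for anti-CD40+Pam2CSK4 over TLR2.CD86, 30 for anti-CD40 over anti-CD86 and 6 for the CD40 by TLR2 interaction. With the slide block and centring on bright probes the counts that moved were 7 for Pam2CSK4, 20 for anti-CD86, 24 for TLR2.CD86, 27 for anti-CD40, 37 for anti-CD40+Pam2CSK4, 10 for TLR2.CD86 over Pam2CSK4, 6 for TLR2.CD86 over anti-CD86, 26 for anti-CD40+Pam2CSK4 over Pam2CSK4, 13 for anti-CD40+Pam2CSK4 over anti-CD40, 29 for anti-CD40+Pam2CSK4 over TLR2.CD86, 32 for anti-CD40 over anti-CD86 and 5 for the CD40 by TLR2 interaction. With median normalization, the count was 0 in every comparison that had calls. With quantile normalization the counts that moved were 5 for anti-CD86, 7 for TLR2.CD86, 13 for anti-CD40, 18 for anti-CD40+Pam2CSK4, 13 for anti-CD40+Pam2CSK4 over Pam2CSK4 and 15 for anti-CD40 over anti-CD86. With centring on bright probes the counts that moved were 4 for anti-CD86, 9 for TLR2.CD86, 8 for anti-CD40, 14 for anti-CD40+Pam2CSK4, 13 for anti-CD40+Pam2CSK4 over Pam2CSK4 and 14 for anti-CD40 over anti-CD86. With normexp background correction the counts that moved were 4 for anti-CD86, 7 for TLR2.CD86, 8 for anti-CD40 and 12 for anti-CD40+Pam2CSK4 over Pam2CSK4. With the authors' log2 values the count that moved was 1 for anti-CD86. With no filter on dim probes the counts that moved were 0 for anti-CD86, 0 for TLR2.CD86, 0 for anti-CD40, 2 for anti-CD40+Pam2CSK4 over Pam2CSK4, 1 for anti-CD40+Pam2CSK4 over anti-CD40, 3 for anti-CD40+Pam2CSK4 over TLR2.CD86, 1 for anti-CD40 over anti-CD86 and 0 for the CD40 by TLR2 interaction. With probes above background on all 12 arrays the counts that moved were 4 for anti-CD86, 7 for TLR2.CD86 and 12 for anti-CD40+Pam2CSK4 over Pam2CSK4. Within slide 1, with 1 array left in 4 groups, the counts that moved were 0 for anti-CD86, 15 for TLR2.CD86, 17 for anti-CD40, 28 for anti-CD40+Pam2CSK4, 13 for anti-CD40+Pam2CSK4 over Pam2CSK4, 1 for anti-CD40+Pam2CSK4 over anti-CD40, 14 for anti-CD40 over anti-CD86 and 0 for the CD40 by TLR2 interaction. With the replicate block the counts that moved were 8 for anti-CD86, 14 for TLR2.CD86, 15 for anti-CD40, 19 for anti-CD40+Pam2CSK4, 16 for anti-CD40+Pam2CSK4 over Pam2CSK4, 6 for anti-CD40+Pam2CSK4 over anti-CD40, 24 for anti-CD40+Pam2CSK4 over TLR2.CD86, 15 for anti-CD40 over anti-CD86 and 4 for the CD40 by TLR2 interaction. With the slide block and median normalization the counts that moved were 0 for anti-CD86, 0 for TLR2.CD86, 4 for anti-CD40+Pam2CSK4, 3 for anti-CD40+Pam2CSK4 over Pam2CSK4, 1 for anti-CD40+Pam2CSK4 over anti-CD40, 2 for anti-CD40+Pam2CSK4 over TLR2.CD86 and 0 for the CD40 by TLR2 interaction. Leaving out 1 array at a time gave 0 to 4 calls for anti-CD86, 0 to 7 for TLR2.CD86, 0 to 8 for anti-CD40, 2 to 10 for anti-CD40+Pam2CSK4, 1 to 11, 1 to 2 and 1 to 16 for anti-CD40+Pam2CSK4 over Pam2CSK4, anti-CD40 and TLR2.CD86, 1 to 8 for anti-CD40 over anti-CD86 and 0 to 1 for the CD40 by TLR2 interaction. A lone array was assumed to vary like the other groups. The slide block with bright or median centring was chosen after seeing the data.

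Among values of the named factors that were called, 6 changed sign. Median normalization turned Eif1a with anti-CD40 to -0.0442 and Eif3e in anti-CD40 over anti-CD86 to -0.0228, the latter to -0.0228 also with the slide block. The median over probes turned Eif2c1 with anti-CD40+Pam2CSK4 to -0.28 over unstimulated cells, -0.0805 over anti-CD40 and -0.62 over TLR2.CD86. Of the other values of these factors, 6966 kept direction and call, 326 lost the call, 381 gained it, 383 that were not called changed sign, 55 of the latter under median normalization, and 50 moved by more than 1 SE when the median over probes was taken.

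Replicate numbers did not pair the arrays across all groups: over 15 pairs of groups the correlation of deviations ran from -0.11 to 0.67, and 6 were over 0.1. Those 6, at 0.54 to 0.67, are all pairs among the 4 groups whose replicate 2 lay on slide 2, where slide and replicate number cannot be told apart. The replicate block raised the calls to the counts given above.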
